A study of Mus musculus with 4 samples.

Results

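The genes of glycolysis and of the response to low oxygen were followed in mouse embryonic stem cells with and without the leukaemia fusion NUP98-HOXA9. The 34 members were chosen by name (glucose transporters, glycolytic enzymes and their regulators, and known hypoxia targets) and matched by gene identifier, out of 55401 genes in the tables. All 34 passed the filter on low counts. The study sequenced messenger RNA from 4 libraries: 1 of parental EB3 cells, labelled wild type; 1 of EB3-derived cells with an empty vector, also labelled wild type; and 2 of EB3-derived cells with NUP98-HOXA9, here fusion libraries 1 and 2. EB3 is a mouse embryonic stem cell line, and all cells were grown on gelatin in serum medium with the cytokine LIF and added pyruvate. The labels name no promoter for the fusion and do not say if its libraries come from different clones or cultures, and 1 control alone carries the vector. The p-values measure the spread between these samples only, which on the wild-type side lies between a parental and a vector-bearing library.

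Glycolysis breaks glucose down to pyruvate in the cytosol, and lactate dehydrogenase turns pyruvate into lactate, which restores the NAD that the pathway needs. Pluripotent stem cells in serum and LIF are known for high glycolytic flux even with oxygen present. When oxygen is scarce, prolyl hydroxylases of the EGLN family no longer mark the alpha subunits of the hypoxia-inducible factors (HIF) for destruction by the VHL ligase, and HIF raises the transcription of glucose transporters, most glycolytic enzymes and genes for vessel growth, mitophagy and collagen maturation. Several of these genes also answer to other signals, as Ddit4 does to stress hormones and the integrated stress response.

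The libraries held 19021386 to 21151729 estimated counts. Hoxa9 counts were 0 and 0 for the wild-type pair, 3785 for fusion library 1 and 2790 for fusion library 2, as labelled, and Nup98 had 216, 218, 310 and 296 CPM. The stem cell markers Pou5f1, Nanog, Sox2, Esrrb and Zfp42 were present in every library, and Pou5f1, the central pluripotency factor, lay between 940 and 1118 CPM, where CPM stands for counts scaled to library size with TMM factors. Levels are compared between libraries in CPM, and between genes in the deposited TPM, which also divides by transcript length. The 2 scales differ between libraries: Gapdh had 2620 CPM in the parental and 2646 CPM in the empty-vector library, but 5231 and 5726 TPM.

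In the comparison of fusion (n = 2) with wild-type libraries (parental and empty vector together, n = 2), 4 members rose and none fell. The risers were the glucose transporter Slc2a3, the vessel growth factor Vegfa and the collagen prolyl hydroxylase subunits P4ha1 and P4ha2, each with a fold between 2.54 and 3.55. None of the 17 enzymes from hexokinase to lactate dehydrogenase passed. Calls are at a Benjamini-Hochberg adjusted p under 0.05 in edgeR's quasi-likelihood test over all 16511 genes tested. The 4 members are 11.8% of 34, beside 2.83% of all genes tested that were called higher and 0.581% called lower. The members were chosen with earlier results of these data known, so this share and those given below only describe them. Among the 7724 genes at a mean of 20 CPM or more, a level that 30 of the members reached, 2.37% were called higher. At an unadjusted p under 0.05, 10 members were higher and 2 (Pfkm and Pdk1) lower. The share of all genes at this looser threshold was not counted, so these numbers stand without a background. DESeq2's Wald test called 7 members higher, adding Slc2a1, Ndrg1 and Egln1, and 0 lower. It called 5.7% of its genes higher and 2.66% lower.

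Each call was lost in at least 1 fit with a library left out, where the lone library of a side is assumed to vary like the other side's pair. Of the 34 members, P4ha2 alone passed without fusion library 1 (adjusted p = 0.0402, edgeR). There Slc2a3 had an adjusted p of 0.0809, and Vegfa and P4ha1 each 0.0669. Without fusion library 2 no member passed, with adjusted p-values of 0.0592 for Slc2a3, 0.0572 for Vegfa, 0.0584 for P4ha1 and 0.0763 for P4ha2. In these 2 fits, in that order, Slc2a3 had a log2 fold change of 1.42 and 1.25, Vegfa 1.96 and 1.67, P4ha1 1.68 and 1.42, and P4ha2 1.97 and 1.25. Without the parental library, P4ha2 did not pass (adjusted p = 0.0672, edgeR). Without the empty-vector library Slc2a1 (adjusted p = 0.011) and Ndrg1 (adjusted p = 0.0213) passed as well.

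Of the 34 members, 28 had a positive log2 fold change, against 49.7% of all genes tested, and the members' median was 0.25, with the quartiles of all tested genes at -0.29 and 0.39. In 17 members both fusion libraries lay above both wild-type libraries, and in 3 (Pfkm, Pdk1 and Hif1a) both lay below. Over all genes tested these classes held 27.1% and 24.2%.

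**Figure D1:**
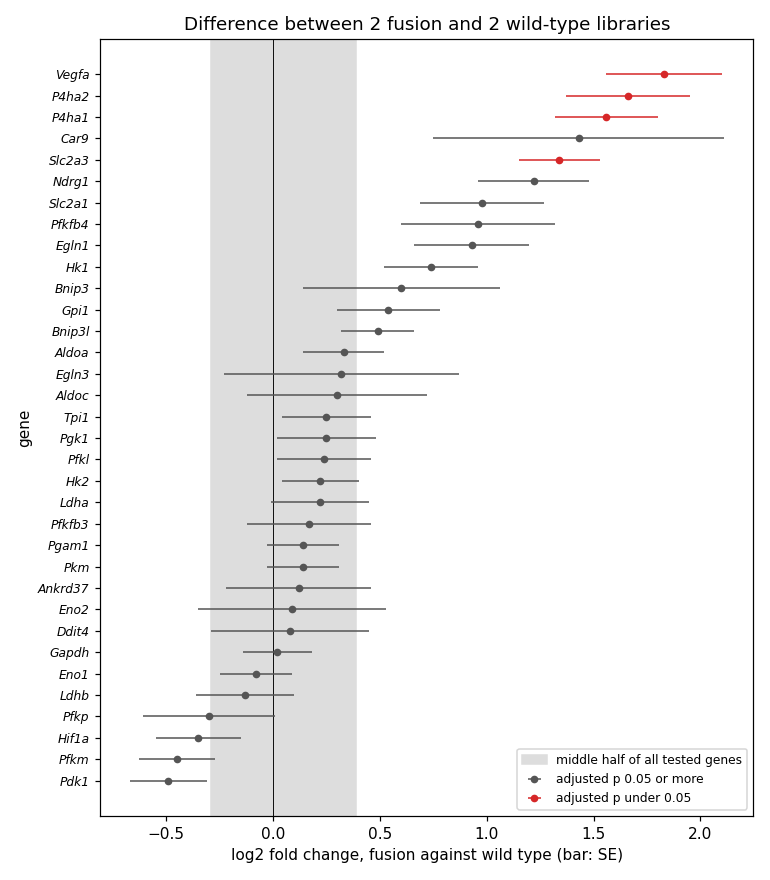
Log2 fold change of each of the 34 members between 2 fusion and 2 wild-type libraries (x axis; points are edgeR estimates, bars the SE, red an adjusted p under 0.05). The grey band runs from the lower to the upper quartile of all 16511 tested genes (-0.29 to 0.39). Vegfa, P4ha2, P4ha1 and Slc2a3 are the 4 called genes; Car9 has a log2 fold change of 1.43 with a wide bar.

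Markers of other cell types were read as well, and the lists differed. Of 14 primitive endoderm markers, 12 rose, and the list's summed level was 242 to 266 CPM in wild-type and 1191 to 1258 CPM in fusion libraries. Within this list Hnf4a (58.7 and 8.98 CPM) and Cubn (7.27 and 82.2 CPM) differed between fusion libraries 1 and 2. Col4a1, a chain of basement-membrane collagen IV and a substrate of the prolyl hydroxylases, had 25, 18.2, 384 and 307 CPM (log2 4, adjusted p = 0.00242, edgeR). Of the defining factors, Sox17 had 0 CPM in the parental and 0.159 CPM in the empty-vector library, then 6.97 and 6.75 CPM. The part of these markers in the rise of P4ha1, P4ha2, Serpinh1, Loxl2 and Vegfa was not tested, and in bulk RNA more cells of a type and more RNA per cell cannot be told apart. Trophectoderm markers, where Slc2a3 is also known, had 0 of 8 tested past the threshold and summed to 116 to 221 CPM in wild-type and 198 to 311 CPM in fusion libraries. Their median log2 fold change was 0.82, with 5 of 8 positive. Cdx2 (0.938, 0.424, 8.87 and 2.69 CPM, log2 3.07, adjusted p = 0.0709) and Gata3 (0.521, 0.318, 2.76 and 0.73 CPM, log2 2.03, adjusted p = 0.2) were higher in both fusion libraries without passing. Elf5, too low to be tested, had 0, 0, 0.0501 and 0.137 CPM. Hand1 (log2 -0.32), Ascl2 (log2 -0.27) and Tfap2c (log2 -0.03) went the other way. Eomes (log2 1.26), Krt8 (log2 0.92) and Krt18 (log2 0.72) were positive, but their fusion and wild-type values overlapped. The part of these markers in the rise of Slc2a3 was not tested. Fibroblast markers summed to 29 to 57 CPM over all libraries, with 0 of 7 past the threshold. Of 5 tested endothelial markers Cdh5 rose to 1.05 and 1.23 CPM and Tek fell from 17.6 and 46 to 5.26 and 6.38 CPM. Of 8 stem cell markers Tbx3 rose, from 47.6 and 82.5 to 524 and 418 CPM.

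Glucose enters these cells through facilitative transporters. Slc2a3 encodes GLUT3, a high-affinity carrier known from neurons, trophectoderm and pluripotent cells (chromosome 6, 122727809 to 122801640, minus strand, GRCm38). It stood at 1184 CPM in the parental library, 1499 in the empty vector, 3193 in fusion library 1 and 3613 in fusion library 2. Both fusion libraries lay above both controls, and the rise was 2.54-fold (log2 1.34, SE 0.19, adjusted p = 0.0217). Slc2a1 encodes GLUT1, the carrier found in most cells (chromosome 4, 119108711 to 119137983, plus strand). Its values were 436, 823, 1192 and 1291 CPM in the same order, with the groups apart. The empty-vector library was 1.89-fold above the parental one, and Slc2a1 did not pass (log2 0.98, SE 0.29, adjusted p = 0.125). A 3-group fit set the same fusion libraries against 1 control at a time. Each control is then 1 library, assumed to vary like the fusion pair, from which alone the fit takes its spread between replicates (1 residual degree of freedom, moderated across genes). Slc2a1 had a log2 fold change of 1.51 over the parental library (adjusted p = 0.044, edgeR) and 0.59 over the empty vector (adjusted p = 0.259). Slc2a3 had 1.52 (adjusted p = 0.0438) and 1.18 (adjusted p = 0.0763). By length-corrected abundance Slc2a3 was the more abundant carrier in every library, at 424, 571, 1264 and 1470 TPM against 228, 460, 707 and 758 TPM for Slc2a1. Together they came to 1620 and 2322 CPM in the wild-type and 4386 and 4904 CPM in the fusion libraries.

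The Slc2a3 gene lies beside Nanog, so the tested genes within 100 kb of the called members were read too, a choice made after values were seen. None of the 8 around Slc2a3 passed. Nanog, a pluripotency factor, had 314, 489, 1041 and 690 CPM, higher in both fusion libraries (log2 1.11, adjusted p = 0.0867, edgeR). Dppa3, expressed in germ cells and naive pluripotent cells, had 38.8, 23.8, 0.602 and 7.98 CPM, lower in both fusion libraries (adjusted p = 0.143). Around P4ha1 the secreted phospholipase gene Pla2g12b passed, from 0 CPM in both wild-type libraries to 1.75 and 0.73 CPM. Neither of the 2 tested neighbours of Vegfa nor the 1 of P4ha2 passed. The shares of all genes tested were 2.83% higher and 0.581% lower, and counts this small describe these neighbours only.

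The first stage of the pathway spends ATP to trap and split glucose, and none of its 9 members passed (median log2 fold change 0.25). Hk1, the broadly expressed hexokinase, had 65.6, 64.3, 88.6 and 128 CPM (parental, empty vector, fusion 1, fusion 2). Its controls were alike and both fusion libraries were higher (log2 0.74, SE 0.22, adjusted p = 0.124). Hk2, the hexokinase that HIF and insulin induce, had a smaller difference: 157, 188, 203 and 199 CPM. Gpi1, glucose phosphate isomerase, had 609, 817, 856 and 1215 CPM, with fusion library 2 the highest and fusion library 1 near the empty vector (fold 1.45, adjusted p = 0.269).

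Phosphofructokinase, the committing step, has a liver, a muscle and a platelet form, and they went different ways. Pfkl, the liver form, stood at 394 CPM in the parental library and at 574, 575 and 572 CPM in the other 3, so that the parental library alone was low. Pfkm, the muscle form, was lower in both fusion libraries, with 73 and 76.3 CPM in wild-type and 53.1 and 56.1 CPM in fusion cells (log2 -0.45, SE 0.18, adjusted p = 0.22). Pfkp, the platelet form, stood at 468, 498 and 526 CPM in the parental, empty-vector and fusion 2 libraries and at 261 CPM in fusion library 1. Its fusion libraries were 2.01-fold apart, on either side of the controls. Pfkfb3 and Pfkfb4 make and remove fructose 2,6-bisphosphate, the activator of phosphofructokinase. Pfkfb3, whose kinase activity dominates, had 26, 43.8, 35.7 and 42.9 CPM, with the groups mixed. Pfkfb4, a related bifunctional enzyme, had 4.22 and 4.08 CPM in wild-type and 9.42 and 6.79 CPM in fusion cells (log2 0.96, SE 0.36, adjusted p = 0.198).

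Aldolase and triose phosphate isomerase close this stage. Aldoa, the main aldolase, had 1714 and 1904 then 2016 and 2539 CPM, with the groups apart by a narrow gap (adjusted p = 0.39). Aldoc, the brain form and a known HIF target, had 28.3, 23.9, 17.9 and 46.5 CPM, so that one fusion library was the lowest of the 4 and the other the highest. Tpi1 had 562 CPM in the parental library and 797, 788 and 825 CPM in the other 3.

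The second stage of the pathway repays ATP, and its 8 members, lactate dehydrogenase included, had log2 fold changes of -0.13 to 0.25 with no call. Gapdh, often taken as a reference gene, had the smallest difference of the 34: 2620, 2646, 2666 and 2660 CPM (log2 0.02, SE 0.16). Pkm, pyruvate kinase, had 3924, 4619, 4780 and 4661 CPM. Pgam1, phosphoglycerate mutase, had 1142, 1305, 1335 and 1368 CPM. In each of these the parental library was lowest of the 4. Pgk1 and Ldha, textbook HIF targets, showed the same split between the controls. Pgk1, phosphoglycerate kinase, had 991 CPM in the parental and 1463 CPM in the empty-vector library, then 1316 and 1597 CPM. Ldha, the lactate dehydrogenase subunit that favours lactate formation, had 1478, 2207, 2249 and 2046 CPM. Against the empty vector alone their log2 fold changes were -0.01 and -0.04, and against the parental library alone 0.56 and 0.54. Ldhb, the heart-type subunit, had 506, 419, 340 and 508 CPM.

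Enolase counts need care. Eno1 had 2590, 2849, 2418 and 2716 CPM, but Eno1b, a near-identical copy in the annotation, held 2257, 2505, 2190 and 2371 CPM, so how the authors' counting split reads between the rows is uncertain. Summed, they gave 4847, 5354, 4607 and 5086 CPM, with the groups mixed. Eno2, the neuronal form, had 19.9, 11, 10.5 and 22.4 CPM, the lower pair being the empty vector and fusion library 1. A deposited count with any fractional part (no tolerance) in at least 1 library, as arises when reads are shared out between rows, occurred in 15 of 34 members, among them 7 of the 8 from Gapdh to Ldhb. Slc2a3 had one in the empty-vector library alone, and Vegfa, P4ha1, P4ha2 and Slc2a1 had whole counts in every library. Aldoa has a further identifier in the annotation with 22 to 42 counts a library, which was not added.

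Pyruvate reaches mitochondria unless pyruvate dehydrogenase is switched off by a kinase. Pdk1, the kinase that HIF induces, had 227 CPM in each wild-type library, 147 CPM in fusion library 1 and 177 CPM in fusion library 2. It had the most negative log2 fold change of the 34 (-0.49, SE 0.18), opposite in direction to Vegfa and P4ha1, and did not pass (adjusted p = 0.19).  Of the 13 genes of pyruvate entry (carrier, dehydrogenase subunits, kinases, phosphatases and carboxylase), 0 passed (median log2 fold change -0.12). The largest differences were those of Mpc1, a pyruvate carrier subunit (8.33, 14.1, 20.2 and 16.6 CPM, adjusted p = 0.294), and Pdk4, another of the kinases (9.95, 9.07, 3.76 and 8.16 CPM, adjusted p = 0.449).

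**Figure D2:**
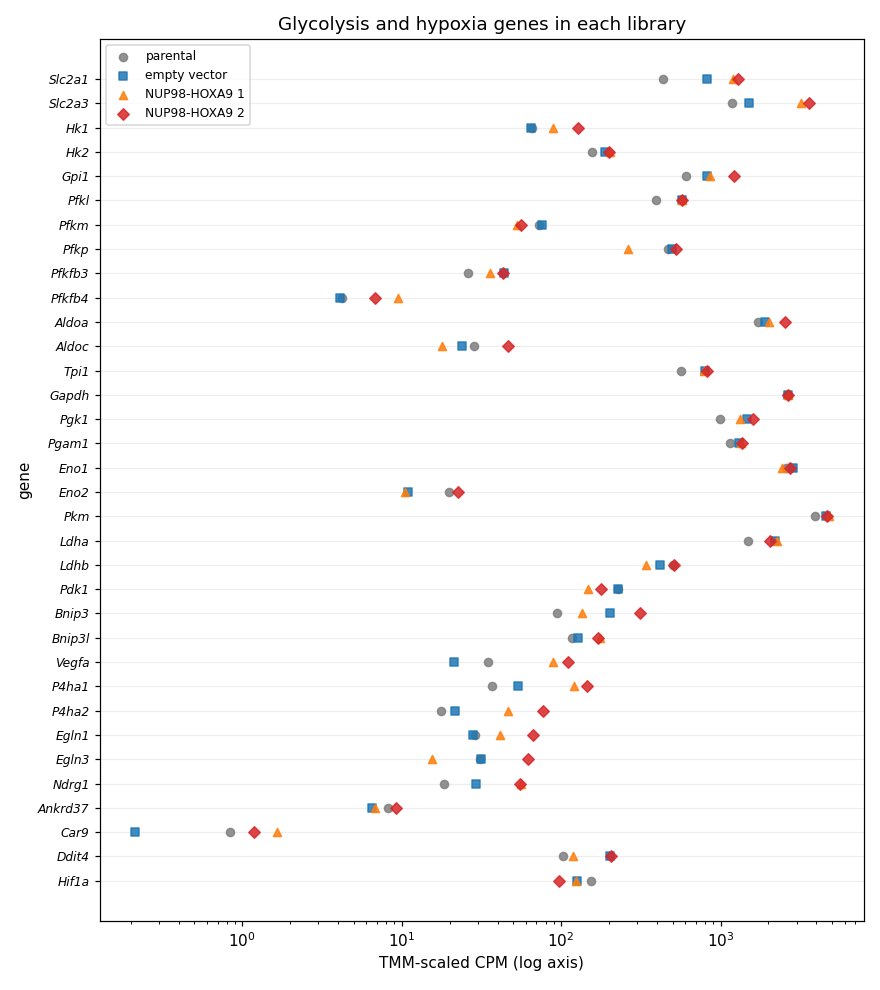
Level of each of the 34 members in each of the 4 libraries (x axis, TMM-scaled CPM on a log axis; 1 point a library). Slc2a3, Vegfa, P4ha1 and P4ha2 have both fusion points right of both wild-type points with a clear gap, Gapdh has all 4 points together, and Egln3, Aldoc and Pfkp have the fusion points on either side of the controls.

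The hypoxia targets outside glycolysis held the other 3 calls among 9 members (median log2 fold change 1.22). Vegfa encodes the secreted factor that drives endothelial growth (chromosome 17, 46016993 to 46032369, minus strand). It stood at 34.6 CPM in the parental library, 21.4 in the empty vector, 89.1 in fusion library 1 and 110 in fusion library 2. Both fusion libraries lay above the higher control, and the rise was 3.55-fold (log2 1.83, SE 0.27, adjusted p = 0.0233). P4ha1 and P4ha2 encode alternative catalytic subunits of the enzyme that hydroxylates collagen prolines in the endoplasmic reticulum, which lets collagen form stable triple helices. P4ha1 (chromosome 10, 59323296 to 59373304, plus strand) had 36.8, 53.3, 120 and 145 CPM, a 2.95-fold rise (log2 1.56, SE 0.24, adjusted p = 0.0242). P4ha2 (chromosome 11, 54100095 to 54131665, plus strand) had 17.6, 21.7, 46.7 and 77.1 CPM, a 3.16-fold rise (log2 1.66, SE 0.29, adjusted p = 0.0346). For both genes every fusion value was above every wild-type value, and fusion library 2 was the higher of its pair. Per 100 TPM of P4hb, the partner subunit that is also a disulfide isomerase, the alpha subunits together had 10 and 13.5 TPM in wild-type and 22.9 and 39.6 TPM in fusion libraries.

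Of the 4 risers, P4ha2 passed against neither single control, and Slc2a3, Vegfa and P4ha1 each passed against 1 of them, with positive log2 fold changes throughout. These p-values carry the limit given above for a control of 1 library, and the difference between the controls was not tested. Over the empty vector, the only control with the vector, Vegfa was the 1 member that passed (log2 2.22, adjusted p = 0.0419, edgeR), where 0.388% of all genes were called higher and 0.109% lower. The log2 values were 1.32 for P4ha1 (adjusted p = 0.0846) and 1.51 for P4ha2 (adjusted p = 0.146). Over the parental library 3 members passed, Slc2a1, Slc2a3 and P4ha1 (0.509% of all genes were called higher and 0.121% lower), while Vegfa had 1.52 (adjusted p = 0.0708) and P4ha2 1.82 (adjusted p = 0.0998).

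Ndrg1, a stress-responsive gene linked to differentiation, came nearest to the threshold. It had 18.4 and 29.3 CPM in the wild-type and 55.8 and 55.4 CPM in the fusion libraries, with the fusion values alike (log2 1.22, SE 0.26, adjusted p = 0.056). It passed by limma on log2(TPM + 1) (adjusted p = 0.0436), as did the 4 risers, where 2.85% of all genes were called higher and 0.533% lower. It lies on chromosome 15, whose genes in fusion library 1 had a median 0.34 (log2) above the other libraries. In fusion library 2 that median was -0.1. Pfkm lies on this chromosome too, and the part of the shift in the values of either gene was not tested. Car9, the membrane carbonic anhydrase often used as a hypoxia marker, was near the detection limit with 16, 4, 33 and 26 counts (log2 1.43, SE 0.68, adjusted p = 0.308).

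Bnip3 and Bnip3l encode outer-membrane proteins that mark mitochondria for autophagy. Bnip3 had 94.5, 202, 136 and 313 CPM, and the spread within each side (2.14-fold between controls, 2.3-fold between fusion libraries) exceeded the difference between sides (1.52-fold, adjusted p = 0.543). Bnip3l was tighter, at 117 and 128 then 175 and 170 CPM (log2 0.49, SE 0.17, adjusted p = 0.161). Ddit4, an inhibitor of mTORC1, followed the Bnip3 order, with 103, 204, 118 and 206 CPM, so the empty vector and fusion library 2 were alike and above the other pair. Ankrd37, a small HIF target, stayed between 6.52 and 9.16 CPM.

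Oxygen sensing itself showed no call. Hif1a, the regulated subunit, had 155, 126, 124 and 97.1 CPM, with the empty vector and fusion library 1 nearly alike (log2 -0.35, SE 0.2, adjusted p = 0.404). Messenger RNA does not measure its protein, which is the regulated step. Egln1, which encodes the main oxygen-dependent hydroxylase, had 29 and 28 CPM in wild-type and 41.5 and 66.9 CPM in fusion libraries (log2 0.93, SE 0.27, adjusted p = 0.113). It lies, with Ankrd37, on chromosome 8, whose genes had a median 0.37 (log2) above the other libraries in the parental line. The part of this shift in the values of the 2 genes was not tested. Egln3, the hydroxylase most strongly induced by HIF, had 30.8 and 31.5 CPM in the controls, 15.4 in fusion library 1 and 62.1 in fusion library 2. Its fusion libraries lay on either side of the controls and 4-fold apart, the widest gap among the 34 members. Of 15 other genes of the HIF machinery 0 passed (median log2 fold change 0.15). Epas1, which encodes the alternative alpha subunit of HIF, had 23, 48.7, 93.2 and 52.7 CPM (adjusted p = 0.221), and Cited2, a HIF-induced inhibitor of HIF's coactivator, had 52.8, 46.8, 119 and 84.9 CPM (log2 1.04, adjusted p = 0.0547).

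The core of the site that HIF binds is read as ACGTG or GCGTG. Promoter windows are given for 3 of the 4 risers, and for Ldha, Pgk1 and Egln3, which did not pass, to show where such letters lie in genes with and without a call. Each is the 250 bases before a RefSeq transcription start (GRCm38.p6), 5′ to 3′ on the gene's strand, with capitals marking every match of either spelling on either strand (CACGT and CACGC are the reverse strand). The P4ha2 and Ldha starts lie inside the longer annotated spans of those genes.
P4ha1, chr10:59323046-59323295, plus strand: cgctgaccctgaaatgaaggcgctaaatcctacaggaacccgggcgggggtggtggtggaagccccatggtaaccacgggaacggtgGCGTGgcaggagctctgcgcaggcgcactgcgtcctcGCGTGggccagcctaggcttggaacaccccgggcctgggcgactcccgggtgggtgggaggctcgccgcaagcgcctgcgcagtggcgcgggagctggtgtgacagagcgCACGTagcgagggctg
P4ha2, chr11:54100674-54100923, plus strand: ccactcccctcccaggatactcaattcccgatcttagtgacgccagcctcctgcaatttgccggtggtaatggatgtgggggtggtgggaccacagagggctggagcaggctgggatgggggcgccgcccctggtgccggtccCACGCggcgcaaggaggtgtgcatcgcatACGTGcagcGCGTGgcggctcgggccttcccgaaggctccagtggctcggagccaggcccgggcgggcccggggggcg
Vegfa, chr17:46032378-46032627, minus strand: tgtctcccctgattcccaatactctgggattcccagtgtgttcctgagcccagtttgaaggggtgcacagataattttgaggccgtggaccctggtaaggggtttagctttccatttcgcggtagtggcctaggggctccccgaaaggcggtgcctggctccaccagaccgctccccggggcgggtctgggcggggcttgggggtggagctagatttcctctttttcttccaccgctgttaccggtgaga
Ldha, chr7:46845554-46845803, plus strand: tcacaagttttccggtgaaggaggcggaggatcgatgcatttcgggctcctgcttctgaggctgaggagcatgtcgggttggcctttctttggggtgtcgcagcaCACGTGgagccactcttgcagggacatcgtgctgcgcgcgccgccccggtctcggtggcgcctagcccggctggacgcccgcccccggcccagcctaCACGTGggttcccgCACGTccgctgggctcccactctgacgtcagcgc
Pgk1, chrX:106186850-106187099, plus strand: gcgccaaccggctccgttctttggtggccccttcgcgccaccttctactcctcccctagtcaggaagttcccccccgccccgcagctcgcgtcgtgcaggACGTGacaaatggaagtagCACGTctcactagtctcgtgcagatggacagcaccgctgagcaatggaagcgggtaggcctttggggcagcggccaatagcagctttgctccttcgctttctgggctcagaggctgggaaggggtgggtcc
Egln3, chr12:54203875-54204124, minus strand: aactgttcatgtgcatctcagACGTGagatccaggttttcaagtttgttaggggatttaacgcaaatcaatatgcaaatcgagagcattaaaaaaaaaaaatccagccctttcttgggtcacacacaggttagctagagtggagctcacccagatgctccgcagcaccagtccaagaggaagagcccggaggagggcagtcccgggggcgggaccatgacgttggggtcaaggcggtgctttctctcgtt

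P4ha1 and P4ha2 had 3 matches each, Ldha 5, Pgk1 2, Egln3 1, and this Vegfa window 0. A further Vegfa window, before a RefSeq start inside the gene (chr17:46025164-46025413, minus strand), had 2 and is not printed because it overlaps a coding exon. In Ldha 4 of the matches come from 2 copies of CACGTG, the E-box bound by MYC and related factors, which reads as ACGTG on both strands. Windows were found for 31 of the 34 members (Slc2a3, Ndrg1 and Bnip3l had none), 45 in all. Of these, 36 (80%) held at least 1 match, against 38.6% of 32851 windows of all genes. Windows rich in G and C hold such letters more often: among those with at least 60% GC the shares were 95.8% of 24 member windows and 63.8% of all. CACGTG was in 11.1% of member windows and 6.02% of all windows. A match is a run of letters, not evidence of binding, and windows of 1 gene overlap in part. Bases outside these windows were not read, so a window with 0 matches does not show that a gene lacks a site.

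The members differed within each side as well as between sides. Among 34 members, 19 had their lowest value in the parental library (26.7% of all genes tested had) and 20 their highest in fusion library 2 (22.3% of all genes). Fusion library 2 was at least 1.5-fold above fusion library 1 for 8 members (23.5%; 15.6% of all genes at 1 CPM or more) and below it for 0 (8.99% of all genes). The 8 were Egln3 (4-fold), Aldoc (2.58-fold), Bnip3 (2.3-fold), Eno2 (2.12-fold), Pfkp (2.01-fold), Ddit4 (1.74-fold), P4ha2 (1.65-fold) and Egln1 (1.61-fold). These ratios of single libraries were not tested. The empty vector was at least 1.5-fold above the parental line for Bnip3, Ddit4, Slc2a1, Pfkfb3 and Ndrg1, which is 5 of the 33 members at 1 CPM or more (11.7% of all genes), and below it for Vegfa and Eno2 (10.7% of all genes). At 2-fold the members were 5 higher and 0 lower between the fusion libraries (7.36% and 2.94% of all genes) and 1 higher and 0 lower between the controls (4.87% and 3.87%). Bnip3 and Ddit4 were the 2 members at least 1.5-fold higher in both pairs. Vegfa and Slc2a3, in contrast, were 1.23-fold and 1.13-fold apart between the fusion libraries.

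**Figure D3:**
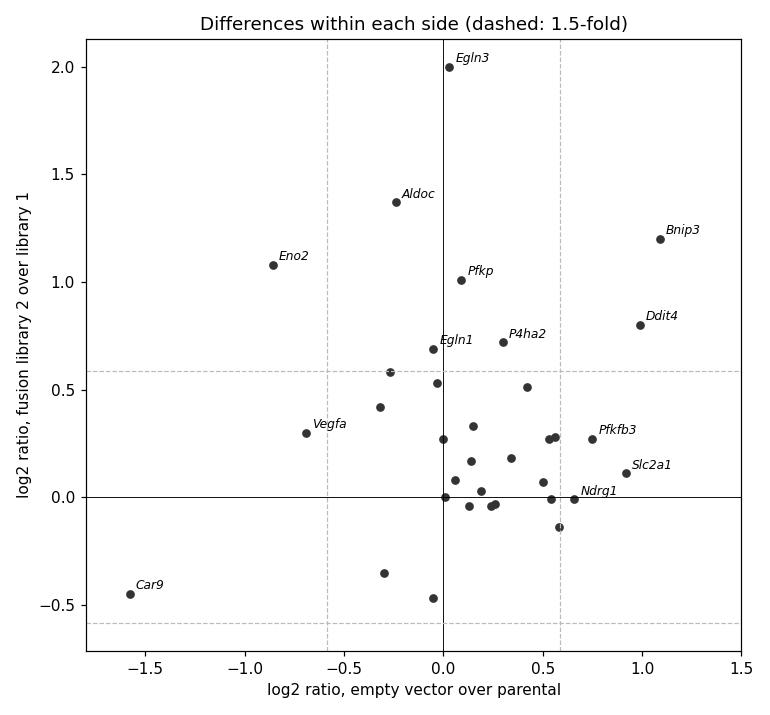
Log2 ratio of the empty-vector to the parental library (x axis) against that of fusion library 2 to fusion library 1 (y axis), 1 point per member, 34 in all; dashed lines mark 1.5-fold. Bnip3 and Ddit4 lie in the upper right, Egln3 lies highest at 2 with almost no difference between controls, and no point lies below the lower dashed line. Car9 was under 1 CPM in both controls and is left out of the counts between controls, but not of those between fusion libraries.

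Paralog use within each enzyme family followed from these values, on the TPM scale. Slc2a3 made up 65% and 55.4% of the GLUT1 and GLUT3 total in wild-type and 64.1% and 66% in fusion libraries, and the empty vector had the lowest Slc2a3 share. The Pfkl share of phosphofructokinase was 46.1% and 51.9% in the controls, 66.4% in fusion library 1 and 50% in fusion library 2. Ldha made up 66.9% of lactate dehydrogenase in the parental line and 79%, 81.9% and 74.2% in the others. Egln1 made up 40.8% and 39.5% of the Egln1 and Egln3 total in the controls, 66.4% in fusion library 1 and 44.2% in fusion library 2. Aldoa held at least 98.3% of aldolase in each library. The 17 enzymes from hexokinase to lactate dehydrogenase took 1.65% of TPM in the parental library, 2.05% in the empty vector, and 2.07% and 2.29% in the fusion libraries. In CPM they summed to 17342, 20463, 19974 and 21687 in the same order. Eno1b is left out on both scales, and with it the CPM sums were 19599, 22968, 22164 and 24057. The order of fusion library 1 and the empty vector thus turned with the scale, while the parental library was lowest on both.

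**Figure D4:**
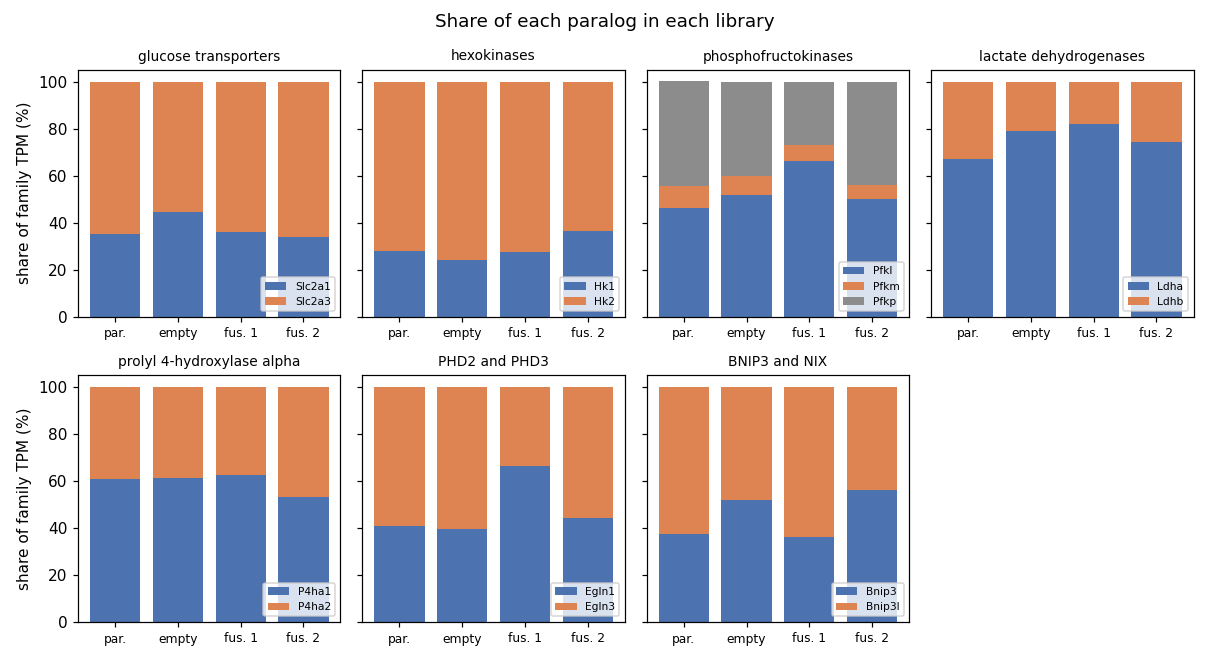
Share of each paralog in the summed TPM of its family (y axis, percent) in the parental, empty-vector, fusion 1 and fusion 2 libraries; each bar stacks to 100%. Fusion library 1 differs from the other 3 in its shares of Pfkl (66.4%) and Egln1 (66.4%).

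Neighbouring pathways were read from lists of 138 distinct genes. Of the 129 tested, 7 passed, all higher (median log2 fold change 0.12). Over all genes tested 2.83% were called higher and 0.581% lower. Of 20 other glycolysis and transport genes tested, Hkdc1 and Slc2a12 rose. Hkdc1, a hexokinase-related gene, went from 0.156 and 0.053 to 6.27 and 6.7 CPM (adjusted p = 0.00863, edgeR), and Slc2a12, the GLUT12 carrier, from 0.208 and 0.159 to 1.45 and 2.28 CPM (adjusted p = 0.0382). The list's median log2 fold change was -0.02. In the pentose phosphate branch 0 of 10 passed and 2 of 10 had a positive log2 fold change (median -0.22), with G6pdx, its entry enzyme, at 102, 128, 70.8 and 69.1 CPM (adjusted p = 0.0918) and Tkt, transketolase, at 701, 435, 386 and 481 CPM (adjusted p = 0.468).

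Of 14 tested genes of gluconeogenesis and glycogen, Fbp2 and Pgm2 rose, and the list's median log2 fold change was 0.62. Fbp2, the muscle fructose bisphosphatase that opposes phosphofructokinase, had 1.25, 3.55, 49.9 and 30.6 CPM (log2 4.06, SE 0.52, adjusted p = 0.0153). Pgm2, a phosphoglucomutase family enzyme, had 28.3, 23, 59.5 and 55.7 CPM (adjusted p = 0.037).

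Of 35 tested hypoxia targets outside the members, 1 rose, where 2.83% of all genes tested were called higher. Among these targets 28 had a positive log2 fold change, against 49.7% of all genes tested (median 0.25, as in the members). The riser was Loxl2, a lysyl oxidase that cross-links collagen, with 29.5, 39.4, 110 and 123 CPM (log2 1.75, SE 0.21, adjusted p = 0.0139). Among the collagen-modifying genes Serpinh1 and Colgalt2 rose, 2 of 10. Serpinh1, a collagen chaperone, had 55, 26.4, 217 and 138 CPM (log2 2.12, SE 0.38, adjusted p = 0.0369). Colgalt2, a collagen galactosyltransferase, had 1 count over the wild-type and 46 over the fusion libraries, a ratio of 41.8 (95% exact binomial interval 7.14 to 1686, counting error only). No gene passed among 9 of the VEGF system or 10 of the integrated stress response. In the VEGF system Flt1, a receptor gene, had 5.52, 2.28, 9.42 and 5.29 CPM (adjusted p = 0.403), and Nrp2, a co-receptor, had 140, 39.7, 35.9 and 30.5 CPM, high in the parental library alone (adjusted p = 0.186). In the stress list Vldlr, a lipoprotein receptor, had 5.57, 2.65, 5.31 and 11.2 CPM (adjusted p = 0.349), and Psat1, a serine synthesis enzyme, had 444, 122, 101 and 196 CPM (adjusted p = 0.436).

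**Figure D5:**
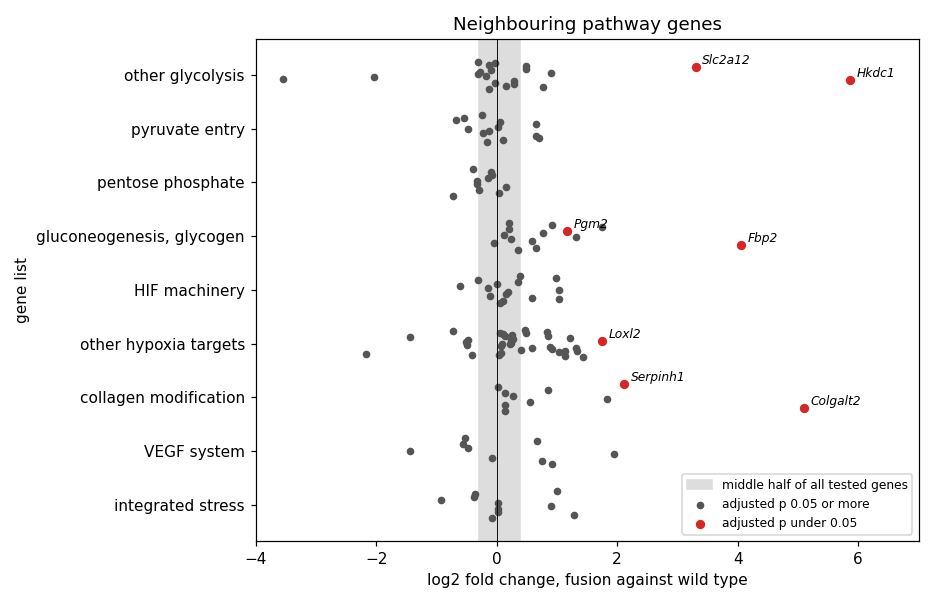
Log2 fold change between fusion and wild-type libraries (x axis) of the tested genes in 9 neighbouring lists (rows); red points passed an adjusted p of 0.05 and are named, and the grey band runs from the lower to the upper quartile of all tested genes. All 7 red points lie to the right of 0, in 4 of the lists.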

How the data were processed

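The 4 libraries were made with a stranded mRNA kit, according to the labels. Each table the authors deposited holds expected counts, TPM and FPKM by gene, per the file headers. The submitters' processing notes list RSEM 1.3.3, STAR 2.7.10a and DESeq2 1.36.0, and the GRCm38 (mm10) build. Not given in the sources used here: annotation release, filters, strand setting. The deposited expected counts share out reads that fit several genes, so 9.16% to 10.18% of values are not whole (any fractional part). The deposited FPKM were not used, and the deposited TPM served for levels between genes.

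Of 55401 identifiers, 99.5% matched GENCODE vM21. Expected counts were rounded and fitted with edgeR 4.0.16 (R 4.3.3): TMM scaling, filterByExpr at a minimum count of 10, robust quasi-likelihood, fusion against both wild-type libraries, Benjamini-Hochberg over 16511 genes, two-sided. Residual degrees of freedom were 2, and the common biological coefficient of variation 25.6%. The SE is the log2 fold change over the square root of F. Ratios of single libraries used a prior count of 2 and genes at 1 CPM or more. The script was tested on simulated data. Alternatives were other scalings, filters and fits, DESeq2 1.42.0, limma 3.58.1 on log2(TPM + 1) or log2(TPM + 0.1), each control alone, each library left out, and a minimum fold of 2. Named are all members and, of the pathway lists, genes past the threshold. Where none passed, the 2 with the largest absolute log2 fold change at a mean of 5 CPM or more are named. P4hb is named as the partner subunit of P4ha1 and P4ha2. The marker lists did not follow this rule in full: only some primitive endoderm markers that passed are named, and no fibroblast marker is. Sox17, the trophectoderm markers, Pou5f1 and other stem cell markers as checks, and neighbours of called members, were named after values were seen. Members and lists were chosen with earlier results of these data known. Plots used matplotlib 3.10.9.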

Additional observations from a re-analysis of the deposited data

How the results depend on the processing

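The count of members called higher was 4 in the reported fit and also with DESeq2's size factors, library totals, the 1 CPM filter, the non-robust fit and a minimum fold of 2. It was 5 by limma at both pseudocounts and 3 over the parental line alone. With no filter 8 members were higher, by DESeq2 7, and over the empty vector alone 1. Leaving out each library in turn gave 0 to 6 members higher. No member was lower under any of the 14 alternatives. Of all genes, 468 were higher and 96 lower; the counts were 1315 and 631 with no filter, 946 and 442 by DESeq2, 84 and 20 over the parental line alone, 64 and 18 over the empty vector alone, and 152 to 367 higher and 11 to 185 lower with each library left out. With library totals 8 members, not 5, were at least 1.5-fold and 2, not 1, at least 2-fold higher in the empty vector than in the parental library. Over the single members and their alternatives, 451 values kept their side of the threshold, 13 of called members lost it and 12 of others gained it. No paired analysis was possible because the labels number only the fusion libraries. Values of Car9 rest on 4 to 33 counts.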
